A study of Mus musculus with 6 samples.

Results

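The genes described are the BTG/TOB family members Btg1, Btg2, Btg3, Tob1 and Tob2 and the p53-linked genes Trp53inp1, Mdm2 and Ccng1, 8 of the 33157 rows of the count table. They were listed by name and chosen by earlier results on their counts in these same IGF-1 and control libraries, so their differences and p-values are given as a description, with p-values adjusted over the whole table, and no p-value is adjusted over the 8 alone. The cells were group 3 innate lymphoid cells (ILC3s) of wild-type genotype, sorted from mouse small intestine and cultured for 4 h. The IGF-1 group (3 libraries) received insulin-like growth factor 1 at 200 ng/mL together with interferon-γ at 20 ng/mL, and the control group (3 libraries) received interferon-γ at 20 ng/mL alone. Both groups therefore carried the interferon-γ stimulus, and cells without it were not analysed here.

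BTG/TOB proteins share an amino-terminal domain that binds the CNOT7 and CNOT8 deadenylases of the CCR4-NOT complex, which shorten the poly(A) tails of mRNAs. They restrain proliferation, and in mouse T cells Btg1 and Btg2 are known to maintain quiescence. The transcription factor p53, encoded by Trp53, activates Mdm2, Ccng1, Trp53inp1 and Btg2 in many cell types, and MDM2 is the ubiquitin ligase that degrades p53. Btg1 and Trp53inp1 are also known as genes that FOXO factors activate, and IGF-1 signalling through AKT keeps FOXO factors out of the nucleus.

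Total counts ranged from 36171528 to 39206449 in the IGF-1 libraries and from 32573713 to 38076876 in the control libraries. The ILC3 genes Il7r, Kit and Il23r averaged at least 244 CPM (counts scaled by library total and TMM factor) in either group. Markers of other lymphocytes were uneven. Of the T cell list, Cd3e averaged 0.715 CPM with IGF-1 and 0.833 CPM in controls, and Cd3d averaged 4.88 CPM with IGF-1 and 2.35 CPM in controls. Cd3g averaged 13.3 CPM with IGF-1 and 9.01 CPM in controls, and Cd4 23.1 CPM with IGF-1 and 33.3 CPM in controls. Of the B cell list, Ms4a1 had no count, Cd79a and Pax5 averaged at most 0.655 CPM in either group, and Cd79b averaged 32.7 CPM with IGF-1 and 26.5 CPM in controls. Control replicate 3 stood apart for Igha and Jchain, but not for the other antibody genes looked up, Igkc and Ighm. Igkc was at 0.111 CPM there, and Ighm was at 14.9 CPM, its lowest value of all libraries. Igha was at 1308 CPM and Jchain at 519 CPM there, against at most 5.54 and 0.209 CPM in the other 5 libraries. For those of the 8 genes whose groups did not overlap, fold changes are therefore given without that library too. Genes other than these 8, apart from Gadd45a, are given from all libraries only. Whether the replicates were different animals or cultures is not in the labels, and the p-values reflect only how far the libraries scattered, part of which may be technical.

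Promoter windows of 300 bases, from 250 before to 50 after an annotated transcript start, matched 7 of the 8 genes in RefSeq (build GRCm38.p6), all but Trp53inp1. The 4 windows below are shown because each holds a match to a motif of a factor named above or to the full CREB/ATF motif. Btg1 (chr10:96616751-96617050, plus strand) and Mdm2 (chr10:117710709-117711008, minus strand) hold the FOXO letters GTAAACA, on one strand or the other. Btg2 (chr1:134079106-134079405, minus strand) holds the full CREB/ATF letters TGACGTCA. Mdm2 and Ccng1 (chr11:40755237-40755536, minus strand) hold a p53 half-site. Each window is written 5′ to 3′ along its gene, with the matches in capitals.
Btg1 (FOXO match): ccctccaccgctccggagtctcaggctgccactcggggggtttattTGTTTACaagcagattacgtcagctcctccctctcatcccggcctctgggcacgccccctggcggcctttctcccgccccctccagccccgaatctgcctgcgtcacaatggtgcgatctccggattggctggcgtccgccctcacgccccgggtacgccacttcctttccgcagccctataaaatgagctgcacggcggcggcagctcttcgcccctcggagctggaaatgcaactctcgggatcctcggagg
Btg2 (CREB/ATF match): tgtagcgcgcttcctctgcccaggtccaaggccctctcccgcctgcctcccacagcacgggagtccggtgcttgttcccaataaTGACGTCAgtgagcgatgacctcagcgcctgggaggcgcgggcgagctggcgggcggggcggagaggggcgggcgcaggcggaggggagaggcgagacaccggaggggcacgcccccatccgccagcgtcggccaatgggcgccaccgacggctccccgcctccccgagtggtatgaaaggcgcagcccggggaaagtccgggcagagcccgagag
Mdm2 (p53 half-site, then FOXO match): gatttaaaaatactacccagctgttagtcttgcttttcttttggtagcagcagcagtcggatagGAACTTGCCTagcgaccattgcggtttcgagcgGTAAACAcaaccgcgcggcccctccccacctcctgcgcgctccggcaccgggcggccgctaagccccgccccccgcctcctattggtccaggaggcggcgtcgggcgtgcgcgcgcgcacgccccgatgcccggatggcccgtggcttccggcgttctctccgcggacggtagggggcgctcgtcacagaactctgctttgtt
Ccng1 (p53 half-site): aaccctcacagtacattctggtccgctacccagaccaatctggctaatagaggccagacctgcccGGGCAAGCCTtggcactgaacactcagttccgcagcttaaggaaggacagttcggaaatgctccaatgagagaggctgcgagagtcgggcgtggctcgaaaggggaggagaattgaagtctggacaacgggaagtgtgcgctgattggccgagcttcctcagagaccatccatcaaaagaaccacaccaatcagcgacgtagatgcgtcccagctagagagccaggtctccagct

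The FOXO match began 204 bases before the start in Btg1 and 153 bases before it in Mdm2, and the p53 half-site 186 bases before it in Mdm2 and 185 in Ccng1. Both strands were searched in all 32851 windows of the table. The FOXO letters were found in 3.65% of them, the CREB/ATF letters in 1.79% and a p53 half-site in 8.36%. Of the 7 matched genes, Btg3, Tob1 and Tob2 held none of these 3 motifs, and Btg2 held no p53 half-site. The shorter CREB/ATF letters TGACG were in 4 of the 7 (Btg1, Btg2, Mdm2 and Tob1) and in 20.8% of all windows. None of the 7 held the AP-1 letters TGANTCA, which 7.81% of all windows hold. A match describes letters in a window and is not evidence that a factor bound there.

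Expression levels are compared between genes only after division by exon length, as CPM per kilobase. Btg1 had the highest level, at 165 ± 31.1 CPM per kilobase with IGF-1 and 184 ± 12.5 in controls (SD, n = 3 each), and no library of another gene came near it. With IGF-1, Ccng1 followed at 69.6 ± 5.88 CPM per kilobase, then Mdm2 at 36.9 ± 3.43, Btg2 at 34.0 ± 2.39 and Trp53inp1 at 33.3 ± 7.28, and the ranges of these last 3 overlapped. In control libraries Ccng1 was at 57.9 ± 3.01, Trp53inp1 at 55.1 ± 6.95 and Btg2 at 51.9 ± 9.74 CPM per kilobase, with overlapping ranges, and Mdm2 lay below them at 30.8 ± 4.47. Tob2, Tob1 and Btg3 formed the low end in both groups, at 6.93, 4.83 and 1.65 CPM per kilobase with IGF-1 and 6.99, 5.94 and 2.92 in controls. On the same per-kilobase scale Btg1 made up 77.4% ± 4.32 of the BTG/TOB sum with IGF-1 and 73.1% ± 3.76 in controls, and Btg2 16.3% ± 3.56 with IGF-1 and 20.6% ± 4.04 in controls.

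**Figure D1:**
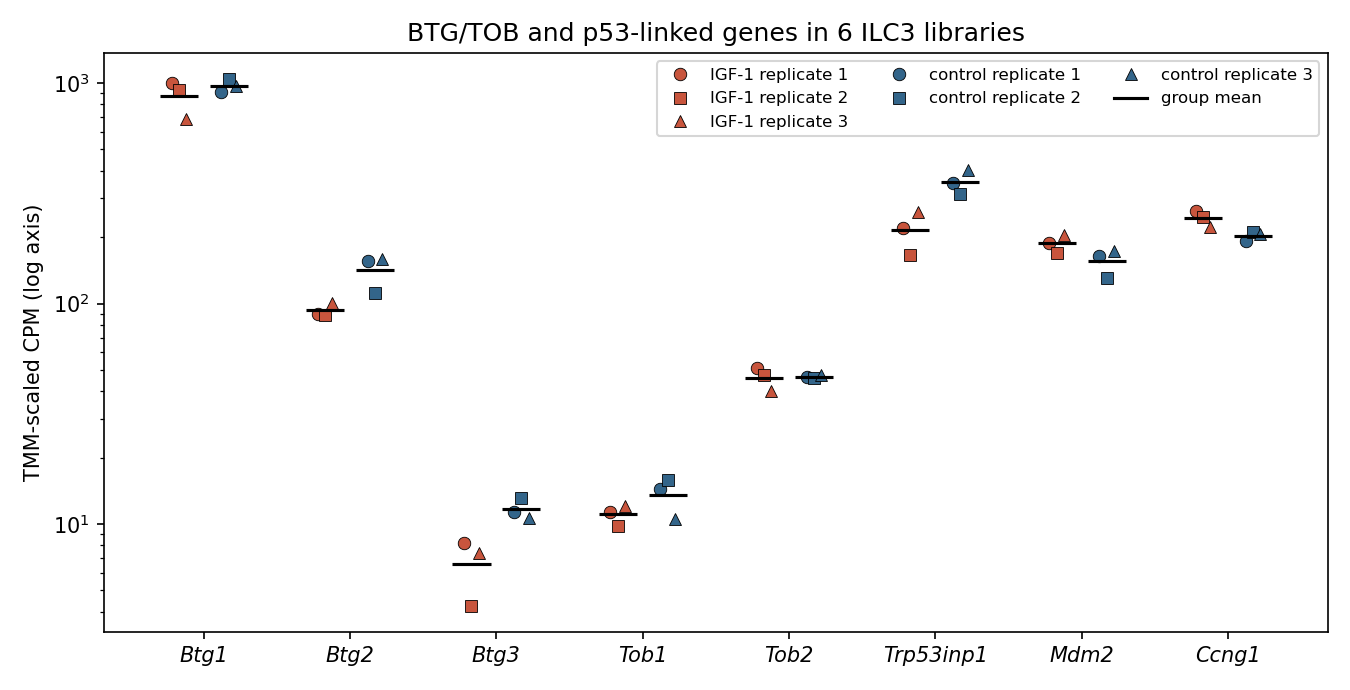
Normalised expression (TMM-scaled CPM, log axis) of the 8 genes in each IGF-1 and control library, with horizontal lines for group means; n = 3 per group. Btg1 lay between 689 and 1040.4 CPM in the 6 libraries, while Btg3 and Tob1 lay between 4.26 and 15.8 CPM, and the IGF-1 points of Btg2, Btg3 and Trp53inp1 all lay below the control points.

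Of the 8 genes, Btg2, Btg3 and Trp53inp1 had lower values in every IGF-1 library than in any control library, Ccng1 had higher ones, and the groups overlapped for Btg1, Tob1, Tob2 and Mdm2. All 8 passed the filter on low counts. By edgeR's quasi-likelihood test with Benjamini-Hochberg adjustment over 13483 genes, 0 of the 8 had an adjusted p under 0.05, where 0.497% of all genes did, 0.230% higher and 0.267% lower. At an unadjusted p under 0.05, 3 were lower and 1 higher, where 6.24% of all genes were lower and 5.58% higher, 11.8% together. Groups without overlap were found in 9.17% of all genes with IGF-1 below and in 8.81% with IGF-1 above, 18.0% together. DESeq2 called 2 of the 8 (Btg2 and Trp53inp1, both lower), where it called 2.01% of its genes lower and 3.59% in all. Limma-voom called 0, where it called 0.445% lower and 0.712% in all. With no filter on low counts, or a filter of 10 CPM in 3 libraries, edgeR also called Btg2 and Trp53inp1 lower, where it called 1.11% and 1.33% of genes lower. The median log2 fold change was -0.23 over the 8 and -0.013 over all genes tested. In these bulk samples, fewer expressing cells and less RNA per cell cannot be told apart.

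Btg1, an anti-proliferative gene abundant in resting lymphocytes, was at 1004, 926 and 689 CPM in the IGF-1 libraries and at 908, 1040.4 and 969 CPM in the control libraries. IGF-1 replicate 3 was the lowest of the 6, while the other 2 IGF-1 libraries lay within the control range. Its log2 fold change was -0.16 (SE 0.14, edgeR adjusted p = 0.749), and -0.010 without IGF-1 replicate 3.

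Btg2, also known as an immediate early gene, was at 89.6, 89.1 and 101 CPM with IGF-1, against 156, 112 and 160 CPM in controls. The 3 IGF-1 libraries lay close together, and control replicate 2 was the nearest control to them. It differed by a log2 fold change of -0.61 (SE 0.15), or -34.6%, with an adjusted p of 0.139 by edgeR and 0.00868 by DESeq2. Leaving out control replicate 3 gave -0.52 (edgeR adjusted p = 0.4996).

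Btg3 was at 8.19, 4.26 and 7.37 CPM with IGF-1, against 11.4, 13.1 and 10.7 CPM in controls, on counts of 147 to 318 reads per library with IGF-1 and 383 to 438 in controls. IGF-1 replicate 2 was the lowest. The log2 fold change was -0.82 (SE 0.30, edgeR adjusted p = 0.302), -0.59 without IGF-1 replicate 2 and -0.89 without control replicate 3. Its counts are the least certain of the 8. In the GENCODE M21 transcripts, 30.9% of its 50-base words also occur in transcripts of other genes, among them the pseudogene Gm7334 and Cxadr, which overlaps it on the opposite strand. The library kit does not mark strand, and Cxadr itself was at 1.91, 1.62 and 3.95 CPM with IGF-1 against 6.36, 4.96 and 5.63 CPM in controls, so its reads and those of Btg3 cannot be told apart where the genes overlap. For the other 7 genes the shared fraction was at most 2.99%.

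Tob1, which inhibits T cell activation, was at 11.3, 9.80 and 12.1 CPM with IGF-1, against 14.5, 15.8 and 10.5 CPM in controls. Control replicate 3 lay among the IGF-1 values. Tob1 differed by -0.30 on the log2 scale (SE 0.24, edgeR adjusted p = 0.689), by -0.18 without control replicate 2 and by -0.45 without control replicate 3. Its paralogue Tob2 was at 51.0, 47.5 and 40.1 CPM with IGF-1 and at 46.3, 45.9 and 47.6 CPM in controls. The control libraries of Tob2 fell within the IGF-1 range, and the log2 fold change was -0.013 (SE 0.14, edgeR adjusted p = 0.985), or 0.081 without IGF-1 replicate 3. A further family member, Btg4, which is known from oocytes, had 8 counts in IGF-1 replicate 1 and none in the other 5 libraries.

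Trp53inp1, a stress-induced regulator of p53 activity and autophagy, was at 220, 166 and 260 CPM in the IGF-1 libraries, against 353, 314 and 403 CPM in the control libraries. IGF-1 replicate 2 was the lowest and the groups did not overlap. Trp53inp1 differed by a log2 fold change of -0.73 (SE 0.17), or -39.6%, with an adjusted p of 0.113 by edgeR and 0.00112 by DESeq2. It was -0.63 when control replicate 3 was dropped (edgeR adjusted p = 0.448) and -0.57 when IGF-1 replicate 2 was dropped (edgeR adjusted p = 0.350).

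Mdm2 was at 188, 170 and 205 CPM with IGF-1 and at 165, 131 and 174 CPM in controls. The groups overlapped, with control replicate 2 the lowest of the 6. The log2 fold change was 0.26 (SE 0.14, edgeR adjusted p = 0.515), and 0.15 without control replicate 2. Ccng1, which encodes cyclin G1, was at 264, 246 and 223 CPM with IGF-1, against 191, 211 and 208 CPM in controls. Every IGF-1 library lay above the controls, by a log2 fold change of 0.26 (SE 0.12, edgeR adjusted p = 0.420), or 0.28 without control replicate 3.

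**Figure D2:**
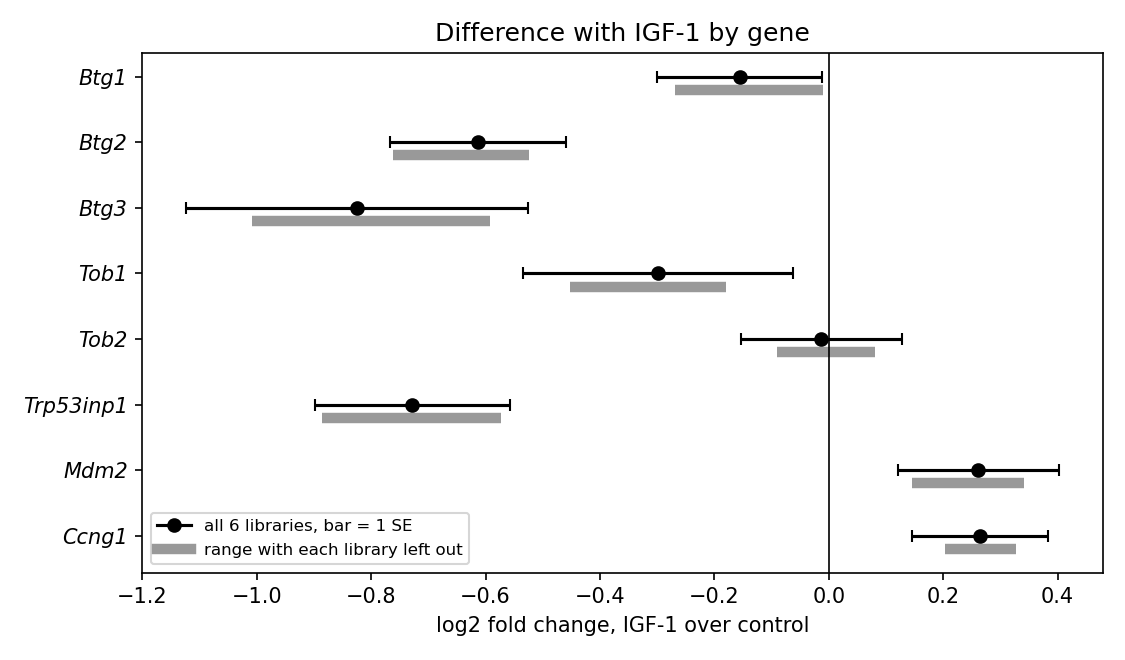
Log2 fold change of IGF-1 over control for each gene from all 6 libraries (points, bars of 1 SE) and the span of the 6 fits with a single library removed (grey bars). The grey bars of Btg2, Btg3 and Trp53inp1 lie between -1.01 and -0.52 and those of Mdm2 and Ccng1 between 0.15 and 0.34, while that of Tob2 spans 0.

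The fold changes of the p53-linked genes had different signs, and ratios between them within a library need no scaling between libraries. These pairs were chosen after their values were seen and are given without a test. Trp53inp1 had 1.17, 0.976 and 1.27 reads per read of Mdm2 in the IGF-1 libraries, against 2.14, 2.40 and 2.32 in the control libraries. Btg2 had 0.478, 0.524 and 0.491 reads per read of Mdm2 with IGF-1, against 0.944, 0.854 and 0.920 in controls. Neither pair overlapped between groups, and nor did Trp53inp1 per read of Ccng1, which averaged 0.891 ± 0.251 with IGF-1 and 1.76 ± 0.241 in controls (SD, n = 3 each). The separation of Trp53inp1 per read of Ccng1 was fixed beforehand, as every IGF-1 library lay below the controls for Trp53inp1 and above them for Ccng1. The share of all gene pairs without overlap was not computed. The other 3 pairs overlapped. Mdm2 per read of Ccng1 averaged 0.774 ± 0.127 with IGF-1 and 0.772 ± 0.134 in controls, Btg2 per read of Btg1 0.111 ± 0.0311 with IGF-1 and 0.148 ± 0.0353 in controls, and Tob1 per read of Tob2 0.243 ± 0.0508 with IGF-1 and 0.292 ± 0.0633 in controls.

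**Figure D3:**
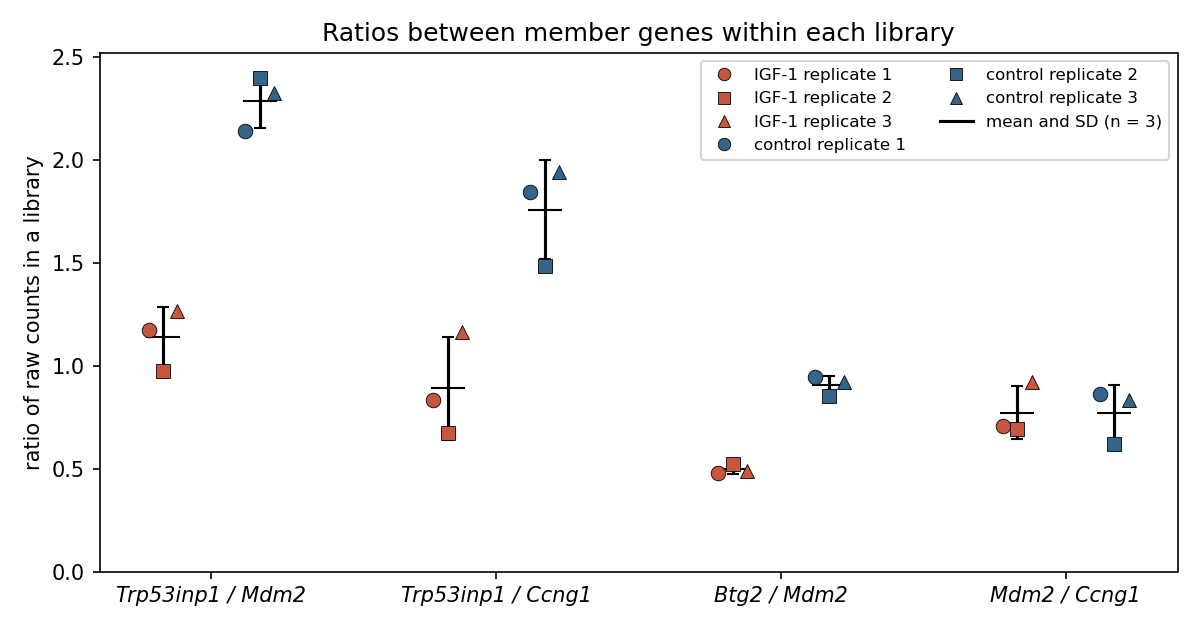
Ratios of raw counts between pairs of the genes in each IGF-1 and control library, with group means and SD (n = 3 per group). Trp53inp1 over Mdm2 lies between 0.976 and 1.27 with IGF-1 and between 2.14 and 2.40 in controls, while Mdm2 over Ccng1 overlaps between the groups.

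Within each group, Btg2, Trp53inp1 and Mdm2 ranked the libraries alike: replicate 3 was highest and replicate 2 lowest for all 3 genes, with IGF-1 and in controls. Btg1 and Ccng1 shared another ranking, highest in IGF-1 replicate 1 and control replicate 2. These rankings were also noticed after the values were seen and were not tested. The spread of log2 CPM within a group was uneven over the 8 genes. Its SD was 0.47 with IGF-1 and 0.14 in controls for Btg3, 0.29 with IGF-1 and 0.098 in controls for Btg1, and 0.099 with IGF-1 and 0.29 in controls for Btg2. The median over all genes tested was 0.23 with IGF-1 and 0.24 in controls. By the root mean square difference of centred log2 CPM over the 6 libraries, Btg2 and Trp53inp1 were 0.19 apart, and Trp53inp1 and Mdm2 0.52 apart.

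Among 8338 other genes with a mean of at least 10 CPM, those most like Btg2 over the 6 libraries were Fhip1b, the death receptor gene Fas and Maf1, a repressor of RNA polymerase III, at root mean square differences of 0.066, 0.070 and 0.079 on the log2 scale. Those most like Trp53inp1 were Plxdc2, Pcyt1a and the MYC antagonist Mxi1, at 0.071, 0.088 and 0.090. Those most like Btg1 were Vapa, Ago1 and Ly96, at 0.051, 0.061 and 0.062. The median over all 8338 genes was 0.39 for Btg2, 0.47 for Trp53inp1 and 0.28 for Btg1. Each is picked as the closest of that many genes, so closeness in 6 libraries is a description.

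The other p53 target genes had as many positive as negative differences. Of 30 tested, 15 were above 0 and 15 below on the log2 scale, with a median of -0.014 against -0.013 over all genes. By edgeR 1 was called lower, Gadd45a, a growth arrest gene that both p53 and FOXO factors are known to activate, and 0 were called higher, where 0.267% of all genes were called lower. Gadd45a was at 24.9, 24.0 and 28.3 CPM in IGF-1 libraries, against 42.8, 43.4 and 52.3 CPM in controls. It fell by 0.84 (log2 scale, SE 0.15, edgeR adjusted p = 0.0496), and the call was lost in each of the 6 fits without 1 library (adjusted p from 0.0622 to 0.281), with scaling by library size only (0.0582) and with the replicate block (0.108). DESeq2 and limma-voom called it lower too, where they called 2.01% and 0.445% of their genes lower. At an unadjusted p under 0.05 by edgeR, 2 of the 30 were higher and 2 lower, where 5.58% of all genes were higher and 6.24% lower. Cdkn1a, the cell cycle inhibitor p21 and a classical p53 target, averaged 99.1 ± 12.8 CPM with IGF-1 and 120 ± 18.4 CPM in controls, with overlapping groups (-0.28, SE 0.15, edgeR adjusted p = 0.529). Fas differed by -0.61 (SE 0.22) and the lipid transfer protein gene Pltp by 1.06 (SE 0.38), both with an edgeR adjusted p of 0.295.

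Trp53 itself was at 107, 116 and 125 CPM with IGF-1 and at 143, 97.6 and 132 CPM in controls, so the groups overlapped (log2 fold change -0.10, SE 0.15, edgeR adjusted p = 0.865). Of 18 p53 regulators and relatives 15 were tested, 6 above 0 and 9 below, with a median of -0.04. By edgeR 0 were called, 1 was higher and 1 lower at an unadjusted p under 0.05 (5.58% and 6.24% of all genes), and DESeq2 and limma-voom called 0. Those 2 were the ubiquitin ligase Rchy1 (0.27, SE 0.11, edgeR adjusted p = 0.380) and the phosphatase Ppm1d (-0.56, SE 0.24, edgeR adjusted p = 0.392). Hipk2, a kinase of p53, differed by -0.77 (SE 0.41, edgeR adjusted p = 0.512).

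Deadenylase subunits and their partners, a list that reaches beyond the CCR4-NOT complex, were measured in all 20 cases. Of these, 11 were above 0 and 9 below, with a median of 0.12. By edgeR and limma-voom 0 were called, while 3 were higher and 2 lower at an unadjusted p under 0.05, where 5.58% of all genes were higher and 6.24% lower. DESeq2 called Pan2 lower, as it did 2.01% of its genes. Pan2, the catalytic subunit of the PAN2-PAN3 deadenylase, averaged 46.4 ± 3.36 CPM with IGF-1 and 66.7 ± 6.37 CPM in controls (-0.52, SE 0.14, edgeR adjusted p = 0.151). The BTG/TOB-binding deadenylase Cnot7 averaged 130 ± 21.0 CPM with IGF-1 and 99.9 ± 6.38 CPM in controls (0.38, SE 0.14, edgeR adjusted p = 0.319), and its groups overlapped. The other such deadenylase, Cnot8, averaged 121 ± 9.99 CPM with IGF-1 and 111 ± 25.1 CPM in controls (0.12, SE 0.17, edgeR adjusted p = 0.846), and Cnot2, a non-catalytic subunit of the complex, differed by 0.35 (SE 0.12, edgeR adjusted p = 0.290).

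Factors linked to lymphocyte quiescence, a list of 16 without BTG/TOB members, had 6 values above 0 and 10 below, with a median of -0.22. By edgeR and limma-voom 0 were called, and DESeq2 called 2 lower, Tcf7 and Vsir, where it called 2.01% of its genes lower. At an unadjusted p under 0.05, 6 were lower and 1 higher, where 6.24% of all genes were lower and 5.58% higher. Tcf7, a transcription factor of resting and memory-like lymphocytes that is also on the ILC3 marker list, was at 176, 181 and 194 CPM with IGF-1 against 279, 246 and 268 CPM in controls (-0.52, SE 0.11, edgeR adjusted p = 0.0945). Slfn2, needed for T cell quiescence in mice, was at 159, 214 and 180 CPM with IGF-1 against 559, 223 and 319 CPM in controls (-0.995, SE 0.28, edgeR adjusted p = 0.176), and its control libraries differed widely. The checkpoint receptor gene Vsir (VISTA) differed by -0.88 (SE 0.26, edgeR adjusted p = 0.204).

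Proliferation markers gave no call. Their levels were uneven: Pcna, the replication clamp, averaged 125 CPM with IGF-1 and 116 CPM in controls, while the mitotic genes Ccnb1 and Aurkb averaged at most 1.62 CPM in either group. Of 20 tested, 16 were above 0 and 4 below, with a median of 0.18, and edgeR, DESeq2 and limma-voom called 0, with 0 at an unadjusted p under 0.05. Their summed level ranged from 336 to 384 CPM with IGF-1 and from 339 to 384 CPM in controls. The members with the smallest p were Birc5, an inhibitor of apoptosis used in mitosis (1.09, SE 0.51, edgeR adjusted p = 0.441), the replication helicase subunit Mcm6 (-0.31, SE 0.15, edgeR adjusted p = 0.455) and the mitotic kinase Cdk1 (1.00, SE 0.54, edgeR adjusted p = 0.514).

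**Figure D4:**
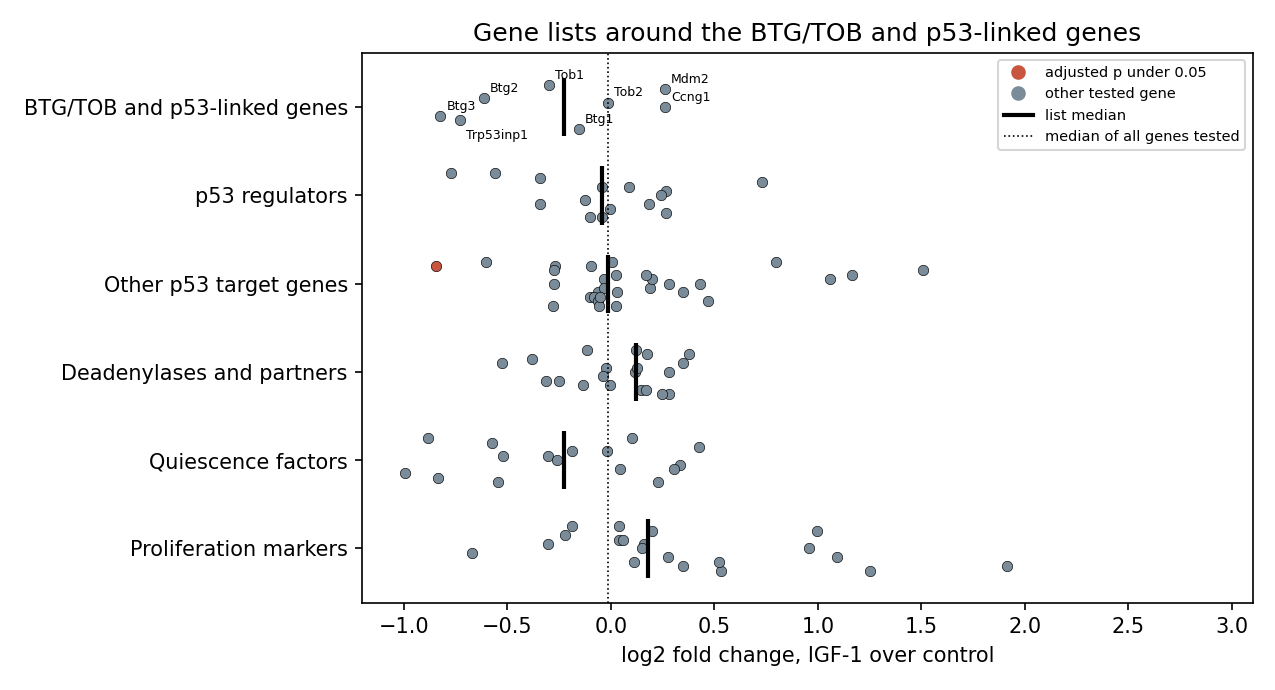
Log2 fold change of IGF-1 over control for each tested gene of the 6 lists (points), with list medians (bars) and the median of all genes tested (dotted line). The medians run from -0.23 for the BTG/TOB and p53-linked genes to 0.18 for proliferation markers, and the single gene with an adjusted p under 0.05 is Gadd45a.

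Values that bear on handling and cell content are given here beside those of Btg2 and Trp53inp1. Of 16 immediate early and dissociation genes 12 were below 0, with a median of -0.28, and their summed level ranged from 619 to 790 CPM with IGF-1 and from 756 to 1022 CPM in controls. By edgeR and limma-voom 0 were called and 2 were lower at an unadjusted p under 0.05, Jun and Klf6, which DESeq2 called lower. Over all genes, 6.24% were lower at that p and DESeq2 called 2.01% lower. The nuclear RNAs Malat1 and Neat1 summed to 1039 to 1912 CPM with IGF-1 and 1450 to 2514 CPM in controls, and 13 mitochondrially encoded mRNAs to 19694 to 23282 CPM with IGF-1 and 15793 to 20445 CPM in controls. The part of these measures in the differences of Btg2 and Trp53inp1 was not tested. T cell markers, of which 7 were in the table, summed to 36.3 to 47.1 CPM with IGF-1 and 42.7 to 50.8 CPM in controls. None of the 7 was at 0 in every library, but Cd8a, Cd8b1 and Cd5 failed the filter on low counts. Epithelial markers summed to 16.3 to 23.5 CPM with IGF-1 and 33.3 to 46.2 CPM in controls; Epcam supplied most of this (17.6 ± 3.28 CPM with IGF-1 and 38.6 ± 6.97 CPM in controls, edgeR adjusted p = 0.0442), and Alpi was at 0. Muc2, a goblet cell mucin, averaged 1.39 CPM with IGF-1 and 0.319 CPM in controls without overlap (log2 fold change 2.12, SE 0.94, edgeR adjusted p = 0.413), and Vil1 and Krt8 averaged at most 0.602 CPM in either group, with overlapping groups. Their part was not tested either.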

How the data were processed

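RNA of sorted, cultured ILC3s was measured in 6 libraries prepared with SMART-Seq HT, per the labels' protocols, and grouped by their titles. The deposited table holds raw counts for each gene symbol. The submitters' processing notes name fastp 0.23.2, HISAT2 2.2.1, SAMtools 1.15.1, featureCounts 1.5.3 and the build GRCm39. Annotation, strandedness and handling of multi-mapped reads were not given in the sources used here.

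Genes were filtered with filterByExpr (minimum count 10, minimum total 15), leaving 13483 of 33157. They were tested with edgeR 4.0.16 (R 4.3.3): TMM, estimateDisp, glmQLFit and glmQLFTest, group as the only term, Benjamini-Hochberg adjustment at 0.05, tested on simulated data. The SE is the size of the log2 fold change divided by the square root of F. CPM uses TMM-scaled library sizes, and 0.5 CPM was added before taking log2 for centred patterns. DESeq2 1.42.0, limma-voom (limma 3.58.1), other scalings and filters, a replicate block and fits without each library were alternatives. In this 3 against 3 design the smallest p of a two-sided exact permutation test is 0.1. Replicates differed by more than sampling noise (chi-square per degree of freedom 37.0 to 82.8 for each pair).

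Exon lengths are unions of GENCODE M21 exons (GRCm38, not the build of the counts), so levels per kilobase are approximate. The members, lists and rule for named genes were chosen with earlier results of these data known. The rule named the 8 members; from each pathway list the called genes, the 3 with the smallest p, and Trp53, Cdkn1a, Cnot7 and Cnot8; and the 3 genes most like Btg1, Btg2 and Trp53inp1. Other genes were named after their values were seen.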

Additional observations from a re-analysis of the deposited data

How the results depend on the processing

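Of the 15 alternatives, 1 changed only the threshold, to an adjusted p under 0.1. Its fold changes were those of the main fit, could not change direction and all count as kept. Of 120 fold changes of the 8 genes under the 15 alternatives, 112 kept their direction and their side of the threshold. Another 6 kept their direction and passed the threshold, and 2 changed sign. Both sign changes were of Tob2 (0.081 without IGF-1 replicate 3 and 0.0016 without control replicate 3). Tob2 ranged from -0.091 to 0.081 with 1 library left out. The 6 were Btg2 and Trp53inp1 with no filter (adjusted p = 0.00559 and 0.000151), the stricter filter of 10 CPM in 3 libraries (0.0421 and 0.0289) and DESeq2 (0.00868 and 0.00112), so 2 of the 8 were called under each of these against 0 by the edgeR test of the report. Fewer genes were tested under the stricter filter (8625) and more with no filter (23260) than in the edgeR test of the report (13483). The unadjusted edgeR p differed too. For Btg2 it was 0.00236 in the report's test, 0.000790 with the stricter filter and 4.71e-05 with no filter. The cause of the added calls was not tested. With 1 library left out, 0 of the 8 were called in each of the 6 fits. Over all genes, 31 were higher and 36 lower. These counts were 171 and 258 with no filter, 63 and 115 with the stricter filter, 188 and 239 with DESeq2, 57 and 87 at an adjusted p under 0.1, and 60 lower with limma-voom. They ranged from 0 to 24 higher and 0 to 31 lower with 1 library left out. With the replicate block 3 were higher and 5 lower, and 0 of the 8 were called. Deviations of same-numbered libraries correlated at -0.229, -0.112 and 0.204 for replicates 1, 2 and 3. The rule set asked for over 0.1 in every pair, so the numbers were not taken to pair the libraries. With 3 libraries per group this cannot exclude a pairing. Between differently numbered libraries, IGF-1 replicate 1 and control replicate 2 correlated at 0.268, and IGF-1 replicate 2 and control replicate 1 at 0.259. The remaining combinations lay between -0.213 and -0.0040. The median of all genes moved by less than 0.1 on the log2 scale under every scaling tried. Depth limits Btg3 most, with 147 to 438 reads per library.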

Other observations

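Paralogues of Ccng1 and Trp53inp1 were looked up after the other values were seen. Ccng2, a cyclin G gene that FOXO factors are known to activate, was at 42.3, 25.8 and 49.1 CPM in the IGF-1 libraries, against 63.9, 53.7 and 62.7 CPM in the control libraries. Its groups did not overlap, with IGF-1 below, whereas those of Ccng1 did not overlap with IGF-1 above. The log2 fold change of Ccng2 was -0.62 (SE 0.21, edgeR adjusted p = 0.280), so it did not pass over all genes. Trp53inp2, the paralogue of Trp53inp1, was at 7.24, 3.48 and 7.37 CPM with IGF-1 and at 5.56, 4.28 and 10.3 CPM in controls (-0.15, SE 0.42, edgeR adjusted p = 0.934), and its groups overlapped.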
